A study of Homo sapiens with 6 samples.

Results

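CAD and the other nucleotide synthesis genes were examined for MYC binding in human medulloblastoma cells of the established line ONS76. The 10 genes were CAD, PPAT, PAICS, IMPDH2, TYMS, CTPS1, UMPS, ATIC, GART and NME1. PPAT and PAICS are transcribed in opposite directions from a shared start region, so the genes gave 9 starts. A MYC peak belonged to a start when its summit lay within 5 kb of the gene start in hg19, whatever its strength. This gave 27 peaks, 9 in each of the 3 MYC lists, out of 59006 peaks in all (24899, 16809 and 17298 in replicates 1, 2 and 3). MYC was immunoprecipitated with the Y69 antibody from cross-linked chromatin of cells labelled as carrying an inducible SOX2 construct, and the study did not map MYC with SOX2 elevated. A normal IgG group of 3 libraries has no peak list of its own here. The study's methods describe immunoprecipitations combined from a single batch of chromatin, and no source used here says if the replicates were grown separately, so each SD is a spread between libraries. Peak lists hold no expression values, so the labelled cell type was not checked against marker genes.

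Cells make nucleotides from amino acids, one-carbon units and ribose phosphate, and dividing cells need them for both RNA and DNA. In the purine pathway PPAT performs the committed step, GART and PAICS build the ring in the middle of the pathway, ATIC closes it to give inosine monophosphate, and IMPDH2 directs that product towards guanine nucleotides. In the pyrimidine pathway CAD performs the opening reactions, UMPS makes uridine monophosphate, CTPS1 makes cytidine triphosphate from uridine triphosphate, and TYMS makes the thymidine nucleotide needed for DNA. NME1 is a nucleoside diphosphate kinase, which acts on purine and pyrimidine nucleotides alike. CAD is a classic MYC target gene, and MYC with its partner MAX binds the E-box CACGTG.

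The DNA at these starts is shown first, because MYC and MAX recognise it directly. RefSeq promoters (build GRCh38.p14, 250 bases before to 50 after an annotated start) were listed for 9 of the 10 genes, IMPDH2 having no entry. CACGTG, searched on both strands, was found in the promoters of 4 genes (44.4% of 9), NME1, ATIC, PPAT and PAICS, against 8.77% of the 27305 genes in the table. For PPAT and PAICS it was the same site, counted once for each gene. CACGTG itself contains CG, and the entries with a copy held 23 to 27 CG pairs, against a median of 14 over all promoters. The share of all genes was not matched for this. ATIC had 2 copies, and 0.664% of all promoters held 2 or more. The 30 bases around each copy are given on the strand of the named gene, with CACGTG in capitals. The NME1 stretch is chr17:51153579-51153608 (plus strand), the ATIC stretches are chr2:215312001-215312030 and chr2:215312076-215312105 (plus strand), and the PAICS stretch is chr4:56435772-56435801 (plus strand).
NME1: caagtgctgcgaacCACGTGggtcccgggc
ATIC upstream copy: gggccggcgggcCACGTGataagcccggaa
ATIC downstream copy: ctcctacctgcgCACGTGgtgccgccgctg
PAICS and PPAT shared copy: ctggaaagctgtatttgctgCACGTGgaaa
With the start of a RefSeq entry as base 1 and the base before it as -1, the NME1 copy began at base 35 and the ATIC copies at -46 and 30. The shared copy began at base 41 of the second of 3 PAICS entries, the one beside PPAT, and at -182 of PPAT. The most upstream PAICS entry, 25245 bp before the second, held a CATGTG at -57 and no CACGTG.

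UMPS and CTPS1 held related forms of the E-box. The variant CACGCG, the variant CACGAG, the variant CATGTG and the variant CATGCG were searched on both strands in addition to the E-box itself. At least 1 of the 5 forms was found in 6 of the 9 genes, against 40.5% of all genes. UMPS had a single CACGAG, read on the opposite strand, and CTPS1 had a pair of overlapping CATGCG matches, 1 on each strand. These stretches are chr3:124730470-124730499 for UMPS and chr1:40979716-40979745 for CTPS1 (both plus strand), with the matches in capitals.
UMPS: caatggcggtcgCTCGTGcagctttggggc
CTPS1: ccgtgaaagactgccgggCGCATGCGgtcg
The promoters of CAD, TYMS and GART held none of the 5 forms in this window. No match says only that these letters are not within the 300 bases. A figure of the study marks E-boxes within example MYC peaks, among them a CAD peak that it places near the transcription termination site. Within 50 kb of the CAD start these lists held 2 peaks in each replicate, at the start and upstream of it. CAD is 26575 bp long in GRCh38, so neither summit lay near the far end of a gene of that length. Which peak the figure shows was not determined. The bases upstream of CAD, upstream of NME1 and between PPAT and PAICS are shown for CAD, which opens the pyrimidine pathway, the start with the strongest peak and the start region that a gene pair shares. None of the letters is in capitals because no copy of CACGTG lay in them. They are chr2:27217179-27217368 (190 bases, plus strand), chr17:51153309-51153558 (250 bases, plus strand) and chr4:56435616-56435740 (125 bases, minus strand, ending at the base before the PPAT start).
CAD: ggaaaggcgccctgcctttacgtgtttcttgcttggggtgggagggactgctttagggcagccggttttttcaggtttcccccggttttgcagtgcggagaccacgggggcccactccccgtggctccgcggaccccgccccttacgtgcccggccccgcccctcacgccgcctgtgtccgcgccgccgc
NME1: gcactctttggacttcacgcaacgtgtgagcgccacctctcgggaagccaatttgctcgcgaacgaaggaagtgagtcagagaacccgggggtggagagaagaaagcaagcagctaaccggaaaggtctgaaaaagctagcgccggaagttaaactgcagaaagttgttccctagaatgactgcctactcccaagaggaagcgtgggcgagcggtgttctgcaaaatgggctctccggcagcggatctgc
PPAT: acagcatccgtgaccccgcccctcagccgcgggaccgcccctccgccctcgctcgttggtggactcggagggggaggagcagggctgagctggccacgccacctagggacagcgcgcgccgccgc
Of 17 further nucleotide synthesis genes, among them PFAS, ADSL, GMPS, DHODH and RRM2, 15 had an entry and 2 of them held CACGTG (13.3%), DHODH and MTHFD1. Their hg19 starts were not used here, so their MYC peaks are not described.

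MYC peaks were present at all 9 starts, and each start had exactly 1 peak within 5 kb in each of the 3 replicates. As a background, 3.88% of positions spaced every 10 kb over the chromosomes had a summit within 5 kb in all 3 replicates, and 5.22% had one in at least 2. At all 9 starts the summits lay within 1 kb in every replicate, against 0.806% of these positions. These positions are not gene starts, and the share among all gene starts could not be computed without hg19 gene models. The study mapped more MYC peaks to promoter regions at transcription starts than to any other class. The shares given are therefore a low background for gene starts. At each of the 9 starts the peaks of the 3 lists overlapped and formed a single place, whereas 45.0% of all places in the genome had a peak in all 3 replicates. Counted by peak, 12615 of 24899, 13085 of 16809 and 13123 of 17298 in replicates 1, 2 and 3 lay at such places. The share among peaks as strong as those of the 9 starts was not computed. Fold enrichment, the number of fragments at the summit over the local background as MACS2 computes it, had a median over the 9 starts of 14.4, 12.3 and 14.6 in replicates 1, 2 and 3. The median of all peaks was 4.15, 4.49 and 4.78, and at places found in all 3 replicates 5.84, 4.97 and 5.38. The median member peak was stronger than 97.3%, 95.97% and 96.98% of the peaks of its own list. In replicate 1 all 9 starts lay in the strongest 10% of the list, and in replicates 2 and 3 it was 7 of 9, with UMPS and TYMS outside it.

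**Figure D1:**
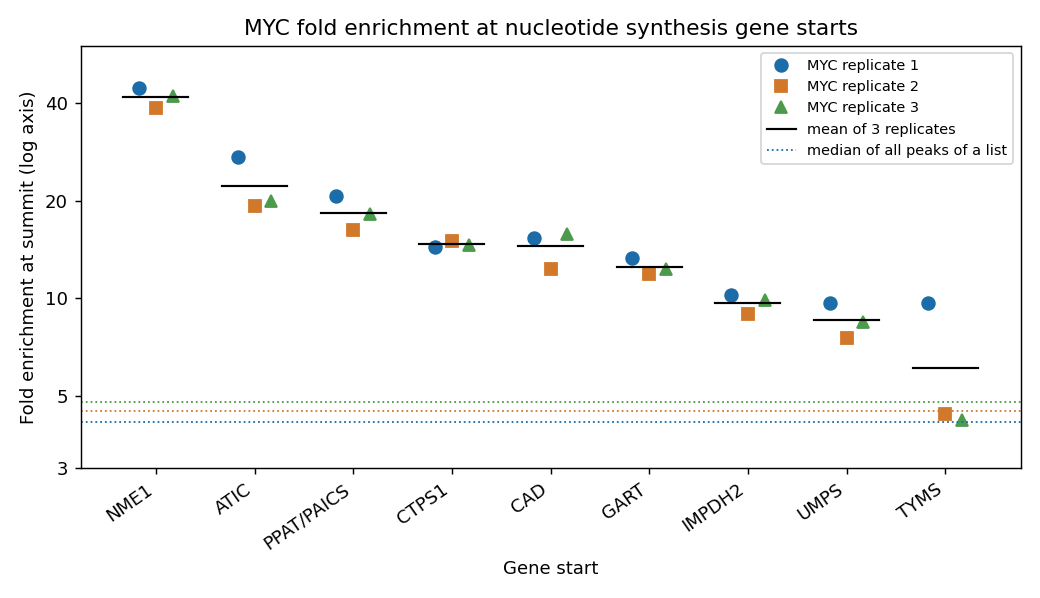
Fold enrichment at the summit (log axis) at the 9 gene starts, ordered by the mean of the 3 MYC replicates (black bar), with the median of all peaks of each list as a dotted line. NME1 lies highest, at 38.7 to 44.5, and TYMS is the only start with values below the median of its list, in replicates 2 and 3.

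The purine genes ranged from a mean of 9.69 to 22.2. ATIC, at chr2:216176319-216177351 (hg19, all peak positions below likewise), was the strongest of them. Its fold enrichment was 27.2, 19.3 and 19.98 in replicates 1, 2 and 3 (22.2 ± 4.38, SD, n = 3), on 238, 131 and 114 fragments. The value in replicate 1 stood above the others, and all 3 lay in the strongest 1% of their lists, with 99.7%, 99.2% and 99.01% of peaks weaker. The place shared by PPAT and PAICS, chr4:57301286-57303318, had values of 20.6, 16.2 and 18.2 (18.4 ± 2.19, SD, n = 3). It was also wide, at 2033 bp, 1511 bp and 1414 bp against list medians of 499 bp, 438 bp and 437 bp. Because both genes start there, the peak cannot be assigned to either.

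GART, at chr21:34913795-34915808, had values of 13.3, 11.8 and 12.3 (12.5 ± 0.751, SD, n = 3), a spread of 6.01% of the mean. The hg38 annotation places the start of SON, a gene on the opposite strand, within 1 kb of GART, so this peak too lies at a start region shared by a pair of genes. IMPDH2, at chr3:49066172-49067081, was the weakest of the purine genes, with 10.2, 8.92 and 9.90 (9.69 ± 0.688, SD, n = 3). Even so, 92.9%, 90.1% and 90.8% of the peaks of the lists were weaker. Antisense noncoding genes start within 1 kb of IMPDH2, UMPS and TYMS in the same annotation.

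The pyrimidine genes ranged from 6.09 to 14.7. CAD, at chr2:27440039-27440792, had a fold enrichment of 15.4, 12.3 and 15.8 (14.5 ± 1.92, SD, n = 3), on 156, 83 and 90 fragments at the summit (exact 95% Poisson intervals 132 to 182, 66.1 to 103 and 72.4 to 111). Replicate 2 was the lowest, and 97.8%, 95.97% and 97.7% of peaks were weaker. The CAD peak was 612 bp, 636 bp and 533 bp wide, narrow among the 9 starts but above the medians of its lists, and its 3 summits fell within 5 bp of each other. CTPS1, at chr1:41444935-41446425, had values of 14.4, 15.1 and 14.6 (14.7 ± 0.330, SD, n = 3), a spread of 2.25% of the mean and the smallest of the 9 starts by fold enrichment. Over the genome-wide level its spread was 11.4% of the mean, above those of GART (4.48%), UMPS (6.69%) and NME1 (7.29%). UMPS, at chr3:124449047-124450070, had 9.67, 7.55 and 8.43 (8.55 ± 1.07, SD, n = 3), below CAD and CTPS1 in each replicate.

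NME1, at chr17:49230547-49231651, was far above the other starts. Its fold enrichment was 44.5, 38.7 and 42.02 (41.7 ± 2.90, SD, n = 3), on 529, 344 and 295 fragments. These were the peaks ranked 8, 6 and 7 by fold enrichment in the lists of 24899, 16809 and 17298. The fragments stood 67.9, 58.9 and 62.01 times above the genome-wide background level, which is the number of fragments an even spread over the genome would give. NME1 exceeded ATIC, the next start, by 0.93 ± 0.19 on the log2 scale (SD, n = 3). The read-through gene NME1-NME2 starts within 1 kb of NME1 in the annotation, on the same strand.

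**Figure D2:**
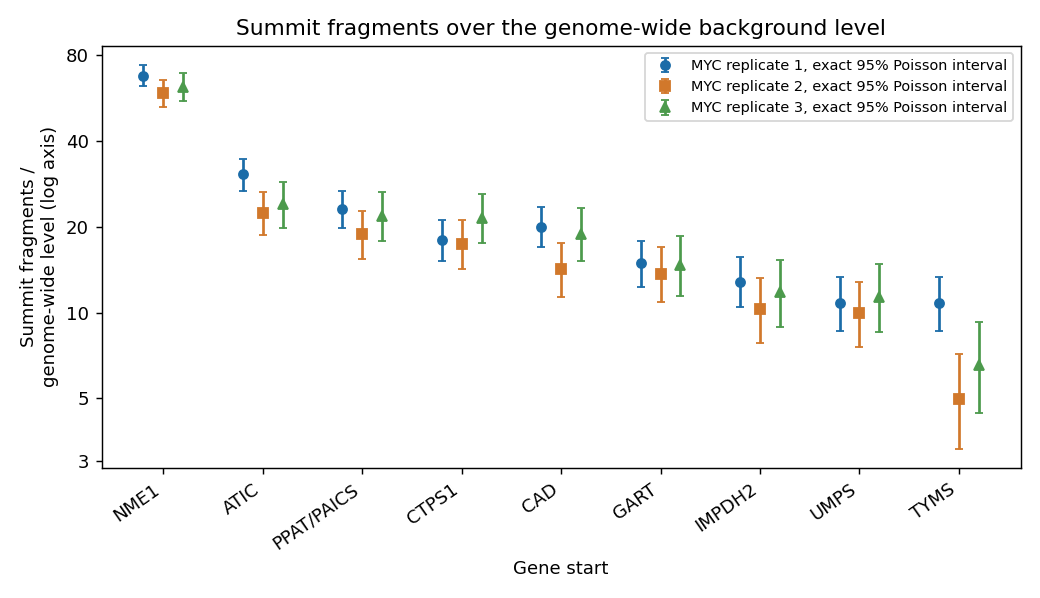
Summit fragments relative to the genome-wide level of their list (log axis) at each start; bars are exact 95% Poisson intervals, which cover counting error only. The intervals of NME1 lie above those of every other start in the same replicate, and the replicate 1 interval of TYMS (8.60 to 13.4) lies above that of replicate 2 (3.33 to 7.13).

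The starts kept nearly the same order in each replicate. Of the 36 pairs of starts, 34 were ordered alike in each replicate. The exceptions were CTPS1 and CAD, with CTPS1 higher in 1 of 3, and UMPS and TYMS, which were tied in replicate 1 at 84 fragments each and in the order UMPS above TYMS in the others. The difference between CTPS1 and CAD (log2 ratio 0.03 ± 0.23, SD, n = 3) was within the spread between replicates. That between UMPS and TYMS (0.60 ± 0.53) was little larger than its SD and came from replicates 2 and 3. ATIC exceeded PPAT/PAICS by 0.26 ± 0.14, PPAT/PAICS exceeded CTPS1 by 0.32 ± 0.20, CAD exceeded GART by 0.21 ± 0.15, GART exceeded IMPDH2 by 0.37 ± 0.05 and IMPDH2 exceeded UMPS by 0.18 ± 0.09 (mean log2 ratio ± SD, n = 3), each in 3 of 3 replicates. With 3 replicates the smallest p of an exact sign test, two-sided, is 0.25, so no pair was tested. The 3 highest starts, NME1, ATIC and PPAT/PAICS, were also those whose RefSeq promoters held CACGTG, among the 8 starts with an entry. With so few starts this is a description. It also depends on the promoter window, which was set around RefSeq starts and not around the summits. From the hg19 starts, summits lay at 90 to 95 bp for CAD, 694 to 707 bp for PPAT/PAICS and 835 to 869 bp for GART. Whether CACGTG lies under the peaks was not tested.

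TYMS was the exception among the 9 starts. At chr18:657241-658767 its fold enrichment was 9.67 in replicate 1 but 4.39 and 4.20 in replicates 2 and 3 (6.09 ± 3.11, SD, n = 3), on 84, 29 and 31 fragments. In replicate 1, 91.7% of peaks were weaker, against 47.02% and 36.96% in replicates 2 and 3, where TYMS lay below the median peak. Its −log10 q-values of 52.3, 8.79 and 8.84 were still beyond the threshold of the lists by a wide margin, and were the lowest of the 9 starts in replicates 2 and 3. The SD was 51.1% of the mean, against 2.25% to 19.8% for the other 8 starts (40.6% over the genome-wide level), and without replicate 1 the mean fell to 4.29 ± 0.131 (SD, n = 2). The ratio of replicate 1 to replicate 2 was 2.21 and to replicate 3 it was 2.30, while the other 8 starts had ratios of 0.958 to 1.41 and 0.973 to 1.36. Among 11547 places with a single peak in each list, the median ratios were 1.14 and 1.05. By fold enrichment, 24 places had a higher ratio than TYMS to replicate 2, 7 to replicate 3, and 0 to both. Over the genome-wide level in place of the local background, the TYMS ratios were 2.17 and 1.66, and 20, 247 and 5 of the 11547 places lay higher. The peak also differed in shape, being 1527 bp, 1076 bp and 520 bp wide with summits upstream of the start in replicates 1 and 2 (-34 bp and -50 bp) and downstream in replicate 3 (171 bp). The local background in replicate 3 was 1.39 times the genome-wide level, against 1 in replicates 1 and 2. Over the genome-wide level alone TYMS stood at 10.8, 4.97 and 6.52. Replicate 1 was the highest on that scale as well, but its distance to replicate 3 was smaller than by fold enrichment. Replicate 1 was the deepest list, with a genome-wide level of 7.79 fragments against 5.84 and 4.76, and its part in the TYMS difference was not tested.

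**Figure D3:**
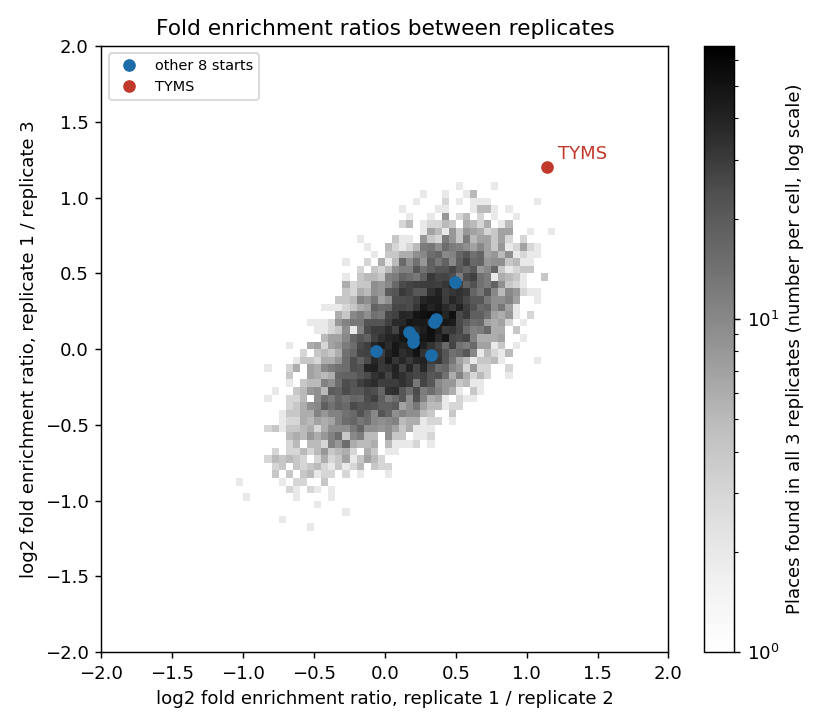
Log2 ratio of fold enrichment of replicate 1 to replicate 2 (x axis) and to replicate 3 (y axis) at 11547 places with a single peak in each list (grey, number of places per cell on a log scale) and at the 9 starts (points). TYMS lies at ratios of 2.21 and 2.30, where 24 places are higher on the x axis, 7 on the y axis and 0 on both. Over the genome-wide level, not drawn here, 5 places are higher on both. The other 8 starts lie within the cloud.

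Most summits lay just downstream of the gene start. Distances are signed along the gene, positive into the transcribed side, and those of PPAT/PAICS follow PAICS. CAD summits were at 95 bp, 94 bp and 90 bp, NME1 summits at 56 bp, 59 bp and 44 bp, IMPDH2 summits at 65 bp, 52 bp and 62 bp, and ATIC summits at 140 bp, 165 bp and 143 bp. UMPS summits were at 114 bp, 178 bp and 135 bp. Only TYMS had summits on the upstream side. PPAT/PAICS and GART stood apart, with summits at 694 bp, 707 bp and 706 bp for the former and 835 bp, 869 bp and 865 bp for the latter. RefSeq lists 3 starts each for PAICS and GART in GRCh38. Counted from the most upstream start, the others lie 25245 bp and 25753 bp downstream for PAICS, and 3 bp and 775 bp downstream for GART. Which base of hg19 these correspond to was not determined, and exons and introns were not assigned to summits for the same reason.

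CTPS1 differed between replicates in position. Its summits were at 395 bp and 424 bp in replicates 1 and 2 and at 712 bp in replicate 3. Its peak reached upstream of the start in replicate 1 only, to -72 bp, and began 42 bp and 205 bp downstream in the others. The start itself was covered by 25 of the 27 peaks, those of CTPS1 in replicates 2 and 3 being the exceptions. Summits of the 3 replicates fell within 100 bp of each other at 7 of 9 starts, the exceptions being CTPS1 with a range of 317 bp and TYMS with 221 bp.

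**Figure D4:**
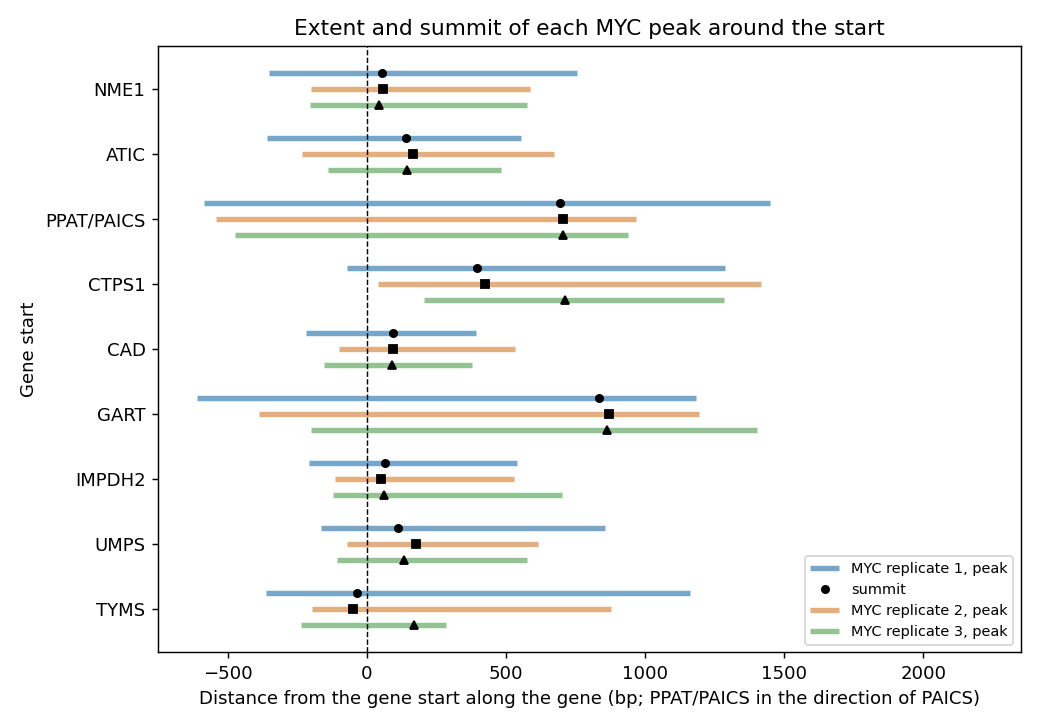
Extent (bars) and summit (black marks) of the MYC peak in each replicate, in bp from the gene start along the gene, with starts ordered by mean fold enrichment. Summits cluster within 178 bp of the start except at PPAT/PAICS, CTPS1 and GART, and those of CTPS1 and TYMS differ between replicates.

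The local background was low at most starts. It stood at the genome-wide level for 5, 7 and 5 of the 9 starts in replicates 1, 2 and 3, including ATIC, PPAT/PAICS and GART in all 3. Among all peaks this was so for 28.9%, 40.4% and 39.97%. NME1 was the start with a raised background in each replicate, at 1.40, 1.35 and 1.27 times the genome-wide level, and no other start was raised in all 3. CTPS1 was at 1.13 and 1.28 in replicates 1 and 3, UMPS at 1.17 and 1.16 in replicates 2 and 3, CAD at 1.18 and IMPDH2 at 1.14 in replicate 1, and TYMS at 1.39 in replicate 3.

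The start peaks were compared with their neighbours. Within 50 kb it had the highest fold enrichment at 8 of 9 starts in replicate 1 and at 9 of 9 in replicates 2 and 3. ATIC, UMPS and TYMS had no other peak within 50 kb in any replicate and so had none to exceed. Of all peaks, 44.2%, 51.01% and 50.4% were the strongest within 50 kb in replicates 1, 2 and 3, and of the strongest 10% of peaks it was 86.03%, 88.4% and 87.97%. The share at the 9 starts was therefore close to that of strong peaks in general. At IMPDH2 a peak 7680 bp downstream was stronger than the start peak in replicate 1 (10.5 against 10.2). In replicates 2 and 3 the peak at 7721 bp and 7791 bp was weaker (7.16 against 8.92 and 8.34 against 9.90). The nearest peaks outside the 5 kb limit were upstream of CAD, at -5473 bp, -5370 bp and -5453 bp from its start, with folds of 8.38, 7.46 and 7.82, while the farthest summits inside it were those of GART. Downstream of NME1 a further strong peak lay at 13210 bp, 13197 bp and 13196 bp. Its fold enrichment was 20.3, 24.5 and 34.02 in replicates 1, 2 and 3, which is another order of replicates than at NME1 itself, where replicate 1 was the highest. These neighbouring peaks were not assigned to genes.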

How the data were processed

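MYC binding was measured by chromatin immunoprecipitation and paired-end sequencing in 3 MYC libraries of ONS76 cells; groups and replicate numbers came from the labels. According to the study's methods and the submitters' processing notes, the authors aligned reads to hg19 with Bowtie2 and called peaks library by library (MACS2, q-value threshold 0.05). Which control was used, how duplicates were treated and the tool versions were not found in the sources read. The deposited lists hold for every peak its summit, a fold enrichment, which is a ratio to the local background after 1 is added to each term, its −log10 p-value and −log10 q-value, and a score, which equals 10 times the latter cut to a whole number. The authors did not scale these values between libraries.

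From the deposited fold and −log10 p-value the fragments at every summit and their local background were solved for (whole fragments within a tolerance of 0.001 on the −log10 scale for 100% of peaks), and the recovery and merging were tested on simulated data. The genome-wide level of a list is its lowest background. Summits were counted from 1 and set against the 9 hg19 starts given with the gene list. Places are merged peaks that share 1 bp or more. Poisson intervals are exact at 95% and cover counting error only, since PCR copies are not independent molecules. Gene strand, neighbours and promoter sequence came from GENCODE and RefSeq tables of GRCh38; no coordinate was carried between builds, and printed bases leave out annotated UTRs except for stretches of 30 bases. All 10 listed genes are named, and 1 further gene of the pathway list is not reported here. The members, lists and comparisons were chosen with earlier results of these data known. Alternatives tried were other windows (1 kb and 10 kb), stricter q-values (0.01 and 0.001), equal numbers of peaks, other overlap rules, other scales of enrichment and leaving out each replicate. Python 3.11.15, pandas 2.3.3 and SciPy 1.17.1 were used.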

Additional observations from a re-analysis of the deposited data

How the results depend on the processing

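All 9 starts kept a peak in each of the 9 alternatives for that count, including a window of 1 kb, a q-value of at most 0.001, equal numbers of the strongest peaks, and the replicates left out in turn. Leaving out a replicate or widening the window to 10 kb could not lose a start, because each had a peak in all 3 lists. The lowest −log10 q-value, 8.79, was already beyond the stricter thresholds. The 9 starts with a place in all lists became 8 under a reciprocal overlap of 50% and 7 when summits had to lie at most 200 bp apart. The mean over replicates of the median fold enrichment of the 9 starts rose from 13.8 to 15.7 with nothing added to fragments and background, and to 17.04 over the genome-wide level, both by construction larger ratios. The median percentile moved from 96.7 to 95.2 among peaks at places found in all 3 replicates, which are stronger as a group. The number of pairs with the same order was 34 or 35 of 36 in the 5 alternatives, and leaving out a replicate could only keep or raise that number. For results that are measured values, the other alternatives moved them by less than the spread between replicates. For single starts 40 of 54 did, the other 14 being higher with nothing added or over the genome-wide level. Most of these outcomes were fixed in advance and say nothing of robustness. Leaving out a single replicate of 3 cannot move a mean by as much as the SD, and the nearest summit was always the same peak. Counts have no such spread. With the 4 variants of the E-box added, the count of genes with a promoter match rose from 4 to 6. Leaving out a replicate gave a median fold of 13.4 to 14.5. No paired analysis was possible because the IgG libraries, whose replicate numbers match those of MYC, have no peak list here and no test between groups was run. TYMS rests on the fewest fragments of the 9 starts in replicates 2 and 3, 29 and 31.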
